A study of Mus musculus with 12 samples.

Results

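The TNF superfamily ligand and receptor genes were taken as all genes whose symbol in the array's annotation begins with Tnfsf or Tnfrsf. The rule found 29 of the 19937 genes measured, 9 ligand genes and 20 receptor genes, each with 1 probe set of its own. A further probe set, which names Tnfsf12, Tnfsf13 and their readthrough gene Tnfsfm13 together, could not be given to any 1 gene and was left out.

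RNA of Lewis lung carcinoma grown in and resected from mouse lungs was measured on 12 Affymetrix arrays, 3 in each of 4 groups. The groups were RelA/p65 deficient hosts exposed to smoke, RelA/p65 deficient hosts exposed to air, wild type hosts exposed to smoke, and wild type hosts exposed to air. All hosts were female C57BL/6 mice. The labels give no age, no smoke dose and no promoter or cell type for the deletion, although the series title places RelA/p65 in myeloid cells, and they do not say whether the replicates of a group were separate animals. RelA/p65 is one of the proteins that make up NF-kB, a transcription factor of inflammation. Lewis lung carcinoma is a mouse tumour passed from animal to animal, and the tissue holds RNA of tumour cells and of host cells.

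TNF superfamily ligands are trimeric proteins, on the cell surface or shed from it, and their receptors signal through adaptor proteins inside the cell. Receptors with a death domain can start apoptosis, others activate NF-kB and give survival or costimulation signals, and decoy receptors bind ligand without passing on a death signal. Several ligands and receptors of the family are themselves NF-kB or interferon target genes, and in lung tumours they are made by immune, endothelial, epithelial and tumour cells alike.

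Array medians over all genes lay between 7.26 and 7.51 on the log2 scale, and arrays of 1 group correlated with r of 0.990 to 0.998 across genes. Rela itself was not lower in the arrays labelled deficient, at 9.31 ± 0.05 in deficient smoke and 9.42 ± 0.04 in deficient air arrays, against 9.08 ± 0.10 in wild type smoke and 9.22 ± 0.06 in wild type air arrays (SD, n = 3 each), so these arrays are called deficient by their label alone. Wild type air replicate 1 stood apart in a list of 9 interferon response genes, at a mean log2 level of 8.20, where replicates 2 and 3 had 7.09 and 7.12. All 12 alveolar and all 9 endothelial markers fell with smoke in wild type hosts, with medians of -1.91 and -0.86. Levels below are log2 expression, differences are log2 differences ± SE, and a gene passed the test at a limma p below 0.05 after Benjamini-Hochberg adjustment over all genes.

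In wild type hosts, smoke went with much less of the death ligand gene Tnfsf10 and of the B cell survival ligand gene Tnfsf13b, and with more of 9 receptor genes, led by Tnfrsf9. Of the 29 genes 13 passed this test (44.8%), where 29.0% of all genes did. Higher genes numbered 10, where 15.0% of all genes were higher, and lower genes 3, where 14.0% were lower. Of all passing genes 51.8% were higher, and 77.1% with each array centred on its median, which gave 13 higher and 3 lower genes of the set. Differences of at least 1 log2 unit were found for 4 genes (3.58% of all genes), and in 15 genes the groups did not overlap (36.9% of all genes). The median size of difference, without regard to sign, was 0.30, and that of all genes 0.17. In deficient hosts fewer genes passed: 2 (6.90%, background 2.41%), Tnfsf10 and Tnfrsf1b, both lower, where 1.72% of all genes were lower. No gene of the set passed as higher there in limma (0.692% of all genes did), and 2 were higher and 6 lower at an unadjusted p below 0.05. The shares of all genes at that unadjusted limit were not counted, so these 2 numbers have no background.

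Between genotypes, tumour tissue of deficient hosts held more Tnfsf10, Tnfsf13b and Tnfrsf1b in either exposure, and under smoke much less Tnfrsf9. In air 14 of 29 genes passed (48.3%, background 38.5%), 11 higher (background 20.5%) and 3 lower (18.0%), 3 of them by at least 1 log2 unit (4.67%), and 15 had groups that did not overlap (51.9%). Centring gave 11 higher and 4 lower genes of the set there, and 39.6% rather than 53.2% of all passing genes were then higher. Under smoke 22 of 29 passed (75.9%, background 59.6%), 11 higher (22.7%) and 11 lower (37.0%), 5 by at least 1 log2 unit (9.97%), and 20 had groups that did not overlap (61.3%). The median size of difference under smoke was 0.37, and that of all genes 0.28. The smoke response itself differed between genotypes for 10 of 29 genes (34.5%, background 14.6%), 5 with a positive difference (8.89%) and 5 with a negative one (5.7%), and for 3 by at least 1 log2 unit (3.74%). Centring gave 4 positive and 7 negative differences of the responses, and 41.4% rather than 60.9% of all passing genes were then positive. Under smoke the split between higher and lower depends on the scaling, since centring each array on its median moved the median difference of all genes by -0.14 and gave 9 higher and 14 lower genes of the set, and 22.9% rather than 38.0% of all passing genes were then higher.

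**Figure D1:**
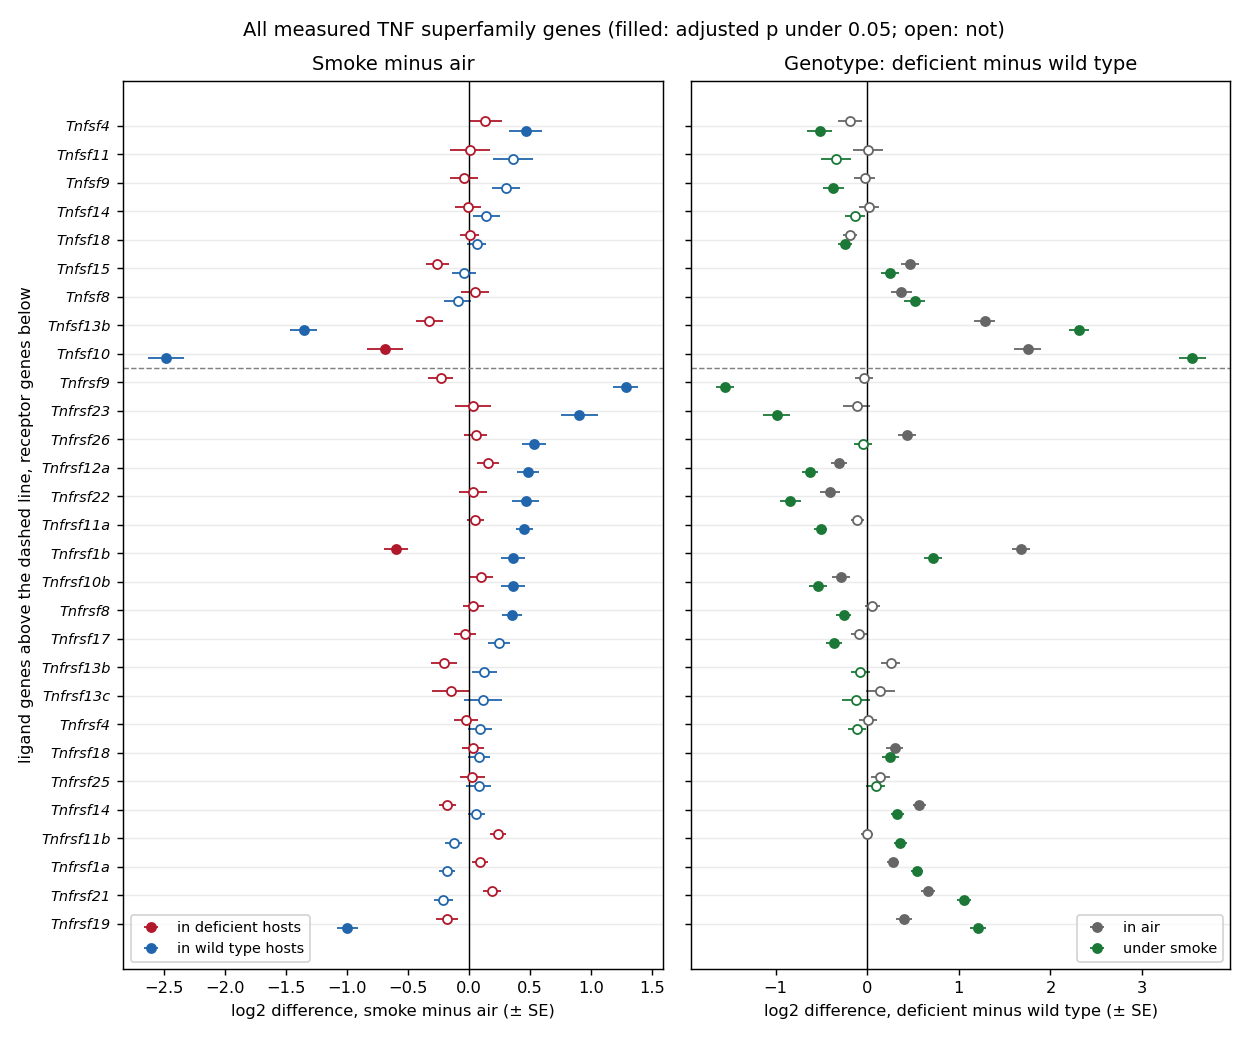
Log2 differences ± SE of all 29 genes, smoke minus air in each genotype (left) and deficient minus wild type in each exposure (right), with 9 ligand genes above the dashed line and 20 receptor genes below it; filled points passed the test at an adjusted p below 0.05. Tnfsf10 and Tnfsf13b lie far to the left for smoke in wild type hosts and far to the right for genotype, while most smoke differences in deficient hosts lie near 0.

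Tnfsf10 encodes TRAIL, a ligand that starts apoptosis through death receptors and is a known interferon target. Its level was 10.36, 10.55 and 10.42 in the deficient smoke arrays and 11.07, 11.21 and 11.13 in the deficient air arrays. In wild type hosts it was 7.22, 6.99 and 6.48 under smoke and 9.37, 9.23 and 9.56 in air. The 4 groups did not overlap, and wild type smoke was the lowest of them. With smoke, Tnfsf10 fell by 2.49 ± 0.15 in wild type hosts (5.61-fold, adjusted p = 2.98e-08). In deficient hosts it fell by 0.69 ± 0.15 (1.61-fold, adjusted p = 0.0263), a call that was lost when any 1 of the 6 deficient arrays was left out, with a difference of -0.74 to -0.65 (adjusted p = 0.0563 to 0.124), and with quantile normalization (adjusted p = 0.110) or median centring (0.0506). The fall was smaller in deficient than in wild type hosts by 1.80 ± 0.21 (adjusted p = 4.34e-05). Genotype went with a difference of 1.75 ± 0.15 in air (3.37-fold) and 3.55 ± 0.15 under smoke (11.7-fold, adjusted p = 2.62e-10).

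Tnfsf13b encodes BAFF, which keeps B cells alive and is made mostly by myeloid cells. Deficient smoke arrays had 9.17, 9.18 and 9.26 and deficient air arrays 9.58, 9.57 and 9.44. Wild type smoke arrays had 6.57, 7.05 and 7.07 and wild type air arrays 8.21, 8.20 and 8.35. The order of the groups was that of Tnfsf10, again without overlap. With smoke Tnfsf13b fell by 1.36 ± 0.11 in wild type hosts (2.56-fold, adjusted p = 8.37e-07). The Tnfsf13b difference was -0.33 ± 0.11 in deficient hosts, which did not pass (adjusted p = 0.221) but did in 3 of 20 alternatives. All 3 smoke arrays lay below all 3 air arrays there. The responses differed by 1.03 ± 0.16 (adjusted p = 4.76e-04). Deficient arrays were higher by 1.28 ± 0.11 in air (2.43-fold) and by 2.31 ± 0.11 under smoke (4.96-fold, adjusted p = 1.18e-09).

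The upstream sequences of these ligand genes, and of Tnfrsf1b, the receptor gene with the largest rise in deficient air arrays, are given from RefSeq (GRCm38.p6). These are the 3 genes of the set that were higher by at least 1 log2 unit in deficient air arrays. Each run is the 250 bases before the start site, 5′ to 3′ on the gene's own strand, and capitals mark a match to the interferon response element, which is GAAA, any 2 bases and GAAA, on either strand. The Tnfsf10 window is chr3:27316827-27317076 (+ strand), that of Tnfsf13b is chr8:10006383-10006632 (+ strand; the downstream one of 2 listed starts), and that of Tnfrsf1b is chr4:145246871-145247120 (- strand).
Tnfsf10: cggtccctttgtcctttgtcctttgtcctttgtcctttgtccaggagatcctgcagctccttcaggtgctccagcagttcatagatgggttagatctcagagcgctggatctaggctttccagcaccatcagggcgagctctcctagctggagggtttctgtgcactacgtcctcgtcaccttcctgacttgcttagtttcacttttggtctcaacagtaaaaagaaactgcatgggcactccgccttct
Tnfsf13b: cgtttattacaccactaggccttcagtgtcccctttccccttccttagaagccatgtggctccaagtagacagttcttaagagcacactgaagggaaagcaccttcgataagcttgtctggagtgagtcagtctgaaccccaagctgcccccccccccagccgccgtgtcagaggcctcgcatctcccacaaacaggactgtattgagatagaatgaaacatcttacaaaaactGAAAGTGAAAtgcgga
Tnfrsf1b: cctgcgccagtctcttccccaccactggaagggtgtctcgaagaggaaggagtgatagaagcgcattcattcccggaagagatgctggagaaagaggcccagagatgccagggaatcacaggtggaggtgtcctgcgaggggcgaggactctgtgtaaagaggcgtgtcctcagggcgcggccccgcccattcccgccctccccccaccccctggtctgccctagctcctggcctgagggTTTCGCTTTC
The promoter table held 27 windows, each of 250 bases before and 50 after a start site, for 23 of the 29 genes. Windows with the interferon element numbered 4 (14.8%), those of Tnfsf13b, Tnfrsf1b, Tnfrsf14 and Tnfrsf17, where 3.44% of all 32851 windows held it. The first base of the match lay at -16 in Tnfsf13b, -10 in Tnfrsf1b, -64 in Tnfrsf14 and -101 in Tnfrsf17. Tnfsf13b, Tnfrsf1b and Tnfrsf14 were higher in deficient arrays in both exposures, while Tnfrsf17 was lower under smoke (-0.37). The windows of Tnfsf10, Tnfrsf19 and Tnfrsf21, also higher in both exposures, and of the other listed start of Tnfsf13b held no interferon element. Tnfrsf1a, Tnfrsf18, Tnfsf15 and Tnfsf8 were higher in both exposures too and were not among the 4 genes with a match, though only 23 of the 29 genes had a window. An NF-kB motif, GGGA, any 2 bases and TTCC, searched on both strands, was in 1.47% of all windows and in none of these 27, which says only that these letters are not in these windows. A match is a description of the sequence, not a site of binding.

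**Figure D2:**
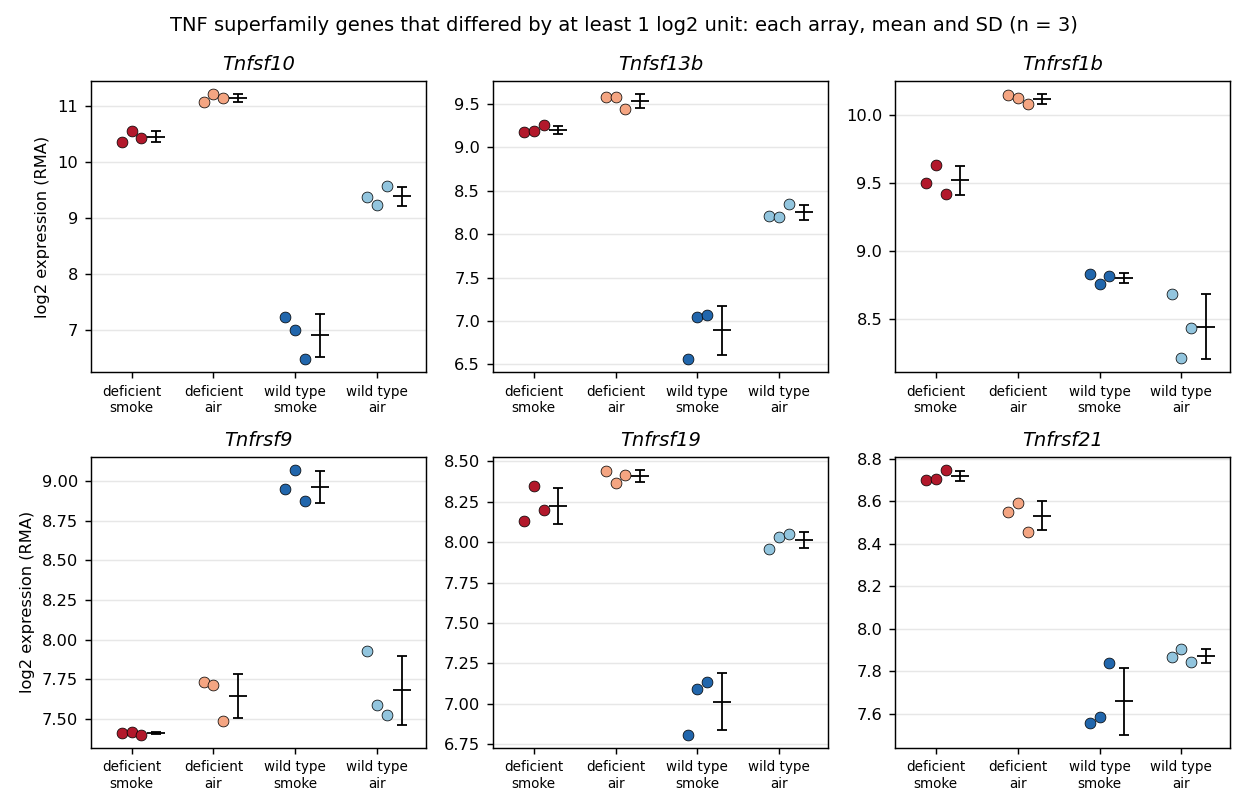
Log2 expression of the 6 genes that differed by at least 1 log2 unit in some comparison, in each of the 12 arrays, with the group mean and SD (n = 3) beside the points; each panel has its own vertical axis, which does not start at 0. Wild type smoke arrays are lowest for Tnfsf10, Tnfsf13b and Tnfrsf19 and highest for Tnfrsf9, and all deficient arrays lie above all wild type arrays for Tnfrsf1b and Tnfrsf21.

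The death receptor gene of TRAIL and its membrane decoy genes went the other way from the ligand gene. Tnfrsf10b is the mouse death receptor of TRAIL, and Tnfrsf22 and Tnfrsf23 are mouse decoy receptors for it. Tnfrsf10b levels were 7.68, 7.61 and 7.47 in deficient smoke, 7.72, 7.37 and 7.37 in deficient air, 8.16, 8.05 and 8.17 in wild type smoke, and 7.86, 7.68 and 7.77 in wild type air arrays. Wild type smoke arrays thus lay above all others. It rose by 0.36 ± 0.10 with smoke in wild type hosts (adjusted p = 0.0160), a call lost without wild type air replicate 2 (0.31, adjusted p = 0.0509). The difference was 0.10 ± 0.10 in deficient hosts, and the test between the responses did not pass (-0.26 ± 0.14, adjusted p = 0.251). Deficient arrays differed from wild type arrays by -0.54 ± 0.10 under smoke (adjusted p = 3.84e-04). In air the difference was -0.29 ± 0.10 (adjusted p = 0.0339), which did not pass without deficient air replicate 2 or 3 or wild type air replicate 1 or 3 (-0.28 to -0.22, adjusted p = 0.0720 to 0.148).

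Tnfrsf23 was 7.52, 7.39 and 7.12 in deficient smoke, 7.55, 7.32 and 7.07 in deficient air, 8.43, 8.36 and 8.20 in wild type smoke, and 7.74, 7.32 and 7.22 in wild type air arrays. It rose by 0.90 ± 0.15 with smoke in wild type hosts (1.87-fold, adjusted p = 5.48e-04), and its difference was 0.03 ± 0.15 in deficient hosts, so that the responses differed by -0.87 ± 0.21 (adjusted p = 0.0129). Under smoke it was lower in deficient arrays by -0.99 ± 0.15 (adjusted p = 8.89e-05). Tnfrsf22 was 7.61, 7.41 and 7.33 in deficient smoke, 7.27, 7.64 and 7.36 in deficient air, 8.39, 8.26 and 8.21 in wild type smoke, and 8.0, 7.81 and 7.67 in wild type air arrays. Again wild type smoke stood above the other groups, with a rise of 0.46 ± 0.11 (adjusted p = 0.00803). The difference was 0.03 ± 0.11 in deficient hosts. The responses differed by -0.43 ± 0.16, which did not pass (adjusted p = 0.0937) but did in 3 of 19 alternatives. Under smoke deficient arrays differed by -0.84 ± 0.11 (adjusted p = 2.88e-05). In air they differed by -0.41 ± 0.11 (adjusted p = 0.0106), lost without deficient air replicate 1 or wild type air replicate 1 (-0.33 and -0.32, adjusted p = 0.0552 and 0.0569). These 2 decoy genes are neighbours of similar sequence, and whether their probe sets tell their RNAs apart was not tested.

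Tnfrsf11b encodes osteoprotegerin, a secreted decoy that binds RANKL and also TRAIL. It was 7.36, 7.44 and 7.38 in deficient smoke arrays, above 7.13, 7.10 and 7.24 in deficient air arrays, 6.99, 7.09 and 7.01 in wild type smoke arrays and 7.24, 7.07 and 7.16 in wild type air arrays. Under smoke deficient arrays were higher by 0.36 ± 0.07 (adjusted p = 4.85e-04). Its smoke differences, 0.23 ± 0.07 in deficient and -0.13 ± 0.07 in wild type hosts, did not pass, yet they differed from each other by 0.36 ± 0.10 (adjusted p = 0.0199), which was lost without deficient smoke replicate 2 or deficient air replicate 1 or 2 (adjusted p = 0.0533 to 0.0607), with quantile normalization (0.31, adjusted p = 0.0511) and with median centring (0.30, adjusted p = 0.0603).

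**Figure D3:**
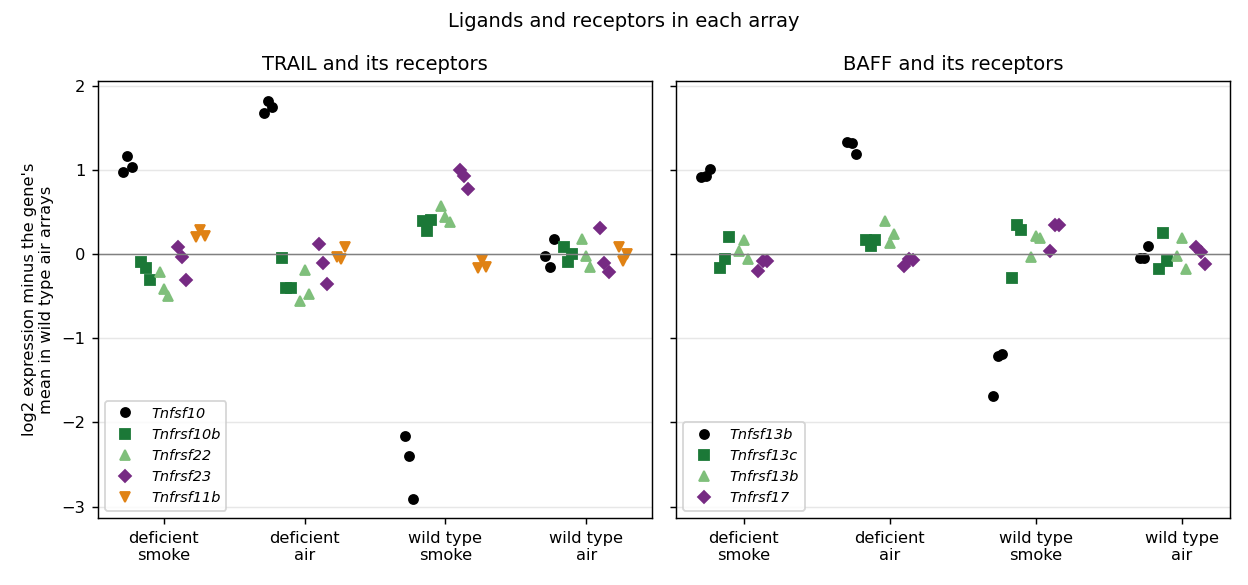
Log2 expression of TRAIL and BAFF ligand and receptor genes in each of the 12 arrays, minus the mean of the same gene in the wild type air arrays (horizontal line at 0). In wild type smoke arrays Tnfsf10 lies far below 0 while Tnfrsf10b, Tnfrsf22 and Tnfrsf23 lie above it, and outside the wild type air arrays the receptor genes of BAFF lie much nearer 0 than Tnfsf13b.

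Receptors of BAFF did not follow their ligand. Tnfrsf13c encodes the BAFF receptor of B cells and Tnfrsf13b encodes TACI, a second receptor of B cells. Tnfrsf13c was 7.46, 7.58 and 7.83 in deficient smoke, 7.80, 7.72 and 7.80 in deficient air, 7.35, 7.97 and 7.91 in wild type smoke, and 7.45, 7.89 and 7.55 in wild type air arrays. All groups but deficient air spread widely and overlapped, and the 4 differences of Tnfrsf13c lay between -0.15 and 0.14, with 95% intervals that reach from -0.49 to 0.48. Tnfrsf13b was 7.22, 7.35 and 7.13 in deficient smoke, 7.58, 7.32 and 7.42 in deficient air, 7.16, 7.39 and 7.37 in wild type smoke, and 7.17, 7.38 and 7.01 in wild type air arrays. It passed in no comparison, although its 95% interval in air, 0.03 to 0.48, did not include 0 before adjustment.

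Tnfrsf17 encodes BCMA, the receptor that keeps plasma cells alive. Its probe set was dim, at 5.46, 5.58 and 5.58 in deficient smoke, 5.53, 5.61 and 5.59 in deficient air, 5.70, 6.01 and 6.01 in wild type smoke and 5.75, 5.69 and 5.55 in wild type air arrays. Under smoke it was lower in deficient arrays by -0.37 ± 0.09 (adjusted p = 0.00343). B cell markers moved differently from these receptor genes: 6 of 7 were higher in deficient than in wild type arrays in air and 6 of 7 under smoke, with medians of 0.71 and 0.85. Of plasma cell markers 3 of 5 were higher in air and 3 of 5 under smoke, with medians of 0.57 and 0.29. Of all genes 20.5% and 22.7% were higher. The mean level of the B cell list was 6.98 to 7.09 in deficient smoke, 7.37 to 7.45 in deficient air, 5.78 to 6.19 in wild type smoke and 6.64 to 6.83 in wild type air arrays. In bulk tissue, fewer cells of a type and less RNA per cell cannot be told apart.

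Both receptors of TNF itself were higher in deficient hosts, and the second one responded to smoke in opposite directions. Tnfrsf1b encodes TNFR2, found mostly on leukocytes and endothelium, which lacks a death domain. It was 9.50, 9.63 and 9.42 in deficient smoke and 10.15, 10.12 and 10.08 in deficient air arrays. Wild type smoke arrays had 8.83, 8.76 and 8.82 and wild type air arrays 8.68, 8.21 and 8.43. All deficient arrays lay above all wild type arrays, by 1.68 ± 0.10 in air (3.20-fold, adjusted p = 8.65e-08) and by 0.72 ± 0.10 under smoke (1.65-fold, adjusted p = 4.10e-05). With smoke it fell by 0.60 ± 0.10 in deficient hosts (adjusted p = 0.00486), and it rose by 0.36 ± 0.10 in wild type hosts (adjusted p = 0.0171). The rise was lost without wild type air replicate 2 (0.24, adjusted p = 0.0567) or 3 (0.36, adjusted p = 0.0528) and in a fit of those 6 arrays alone (adjusted p = 0.0759), and it was 0.48 without wild type air replicate 1. The responses differed by -0.96 ± 0.14 (adjusted p = 3.31e-04), and Tnfrsf1b was the 1 gene of the set that passed in opposite directions in the 2 smoke comparisons.

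Tnfrsf1a encodes TNFR1, the death domain receptor of TNF on most cell types. It averaged 10.56 ± 0.04 in deficient smoke, 10.47 ± 0.00 in deficient air, 10.01 ± 0.09 in wild type smoke and 10.20 ± 0.09 in wild type air arrays (SD, n = 3 each). The deficient arrays were higher by 0.28 ± 0.07 in air (adjusted p = 0.00430) and by 0.55 ± 0.07 under smoke (adjusted p = 1.20e-05). Its smoke difference in wild type hosts was -0.18 ± 0.07, which did not pass (adjusted p = 0.0549) but did in 5 of 20 alternatives.

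The ligand gene Tnf has a symbol outside the rule and showed the same signs as Tnfrsf1b in both smoke minus air comparisons. Its level was 6.54, 6.53 and 6.67 in deficient smoke, 7.07, 7.08 and 6.93 in deficient air, 6.67, 6.78 and 6.76 in wild type smoke, and 6.46, 6.37 and 6.19 in wild type air arrays. Tnf fell by 0.44 ± 0.08 with smoke in deficient hosts (adjusted p = 0.00872), which did not pass without replicate 1 or 2 of the deficient air group (-0.42 each, adjusted p = 0.0521 and 0.0563), and rose by 0.39 ± 0.08 in wild type hosts (adjusted p = 0.00247). The responses differed by -0.84 ± 0.11 (adjusted p = 1.55e-04). In air deficient arrays were higher by 0.68 ± 0.08 (adjusted p = 1.53e-05), and under smoke the difference was -0.15 ± 0.08 (adjusted p = 0.110), which passed with array weights (-0.19, adjusted p = 0.0176), quantile normalization (-0.20, adjusted p = 0.0261) and median centring (-0.30, adjusted p = 0.00351).

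Among costimulatory receptors of T cells, Tnfrsf9 stood out. It encodes 4-1BB (CD137), which is induced on activated T and NK cells and is also found on other cells. Tnfrsf9 was 7.41, 7.42 and 7.40 in deficient smoke, 7.73, 7.71 and 7.49 in deficient air, 8.95, 9.07 and 8.87 in wild type smoke, and 7.93, 7.59 and 7.52 in wild type air arrays. Wild type smoke arrays lay well above the others. The rise with smoke was 1.28 ± 0.10 in wild type hosts (2.43-fold, adjusted p = 6.17e-07), and the difference was -0.23 ± 0.10 in deficient hosts (adjusted p = 0.431), with a test of the difference between them of -1.52 ± 0.15 (adjusted p = 6.59e-06). Deficient arrays differed by -1.55 ± 0.10 under smoke (2.94-fold, adjusted p = 3.10e-08) and by -0.04 ± 0.10 in air. T and NK cell markers did not rise with Tnfrsf9: 3 of 11 fell with smoke in wild type hosts, and their mean level was 5.97 to 6.32 in wild type smoke and 6.36 to 6.54 in wild type air arrays, against 7.23 to 7.41 in deficient smoke and 7.74 to 7.85 in deficient air arrays.

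Tnfsf9, the gene of the 4-1BB ligand, was 6.21, 6.19 and 6.14 in deficient smoke, 6.21, 6.19 and 6.28 in deficient air, 6.72, 6.63 and 6.31 in wild type smoke, and 6.46, 6.00 and 6.30 in wild type air arrays. Its smoke difference in wild type hosts was 0.30 ± 0.12 and did not pass (adjusted p = 0.0672), but did in 4 of 20 alternatives. Under smoke it was lower in deficient arrays by -0.37 ± 0.12 (adjusted p = 0.0149), which did not pass without wild type smoke replicate 2 (-0.33, adjusted p = 0.0541) or with quantile normalization (-0.36, adjusted p = 0.0665).

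The other costimulatory pairs changed less. Tnfsf4, the OX40 ligand, rose by 0.46 ± 0.13 with smoke in wild type hosts (adjusted p = 0.0210) from a dim probe set, 5.41 ± 0.32 under smoke against 4.95 ± 0.01 in air, and lost the call without wild type smoke replicate 3 (0.30) or wild type air replicate 1 or 3 (0.46 each; adjusted p = 0.0540 to 0.0749 in all) and in a fit of those 6 arrays alone (adjusted p = 0.0666). Tnfsf4 differed by -0.52 ± 0.13 between genotypes under smoke (adjusted p = 0.00507), while the gene of its receptor OX40, Tnfrsf4, passed in no comparison, with differences of -0.11 to 0.09. Tnfrsf18, the GITR receptor of regulatory and activated T cells, was higher in deficient arrays by 0.30 ± 0.09 in air (adjusted p = 0.0198) and by 0.25 ± 0.09 under smoke (adjusted p = 0.0323). The air call was lost without deficient air replicate 2 or 3 or wild type air replicate 3 (0.26 to 0.29, adjusted p = 0.0582 to 0.0727) and the smoke call without deficient smoke replicate 1 or 3 or wild type smoke replicate 1 (0.13 to 0.24, adjusted p = 0.0771 to 0.109), with median centring (0.11, adjusted p = 0.239) and in a fit of those 6 arrays alone (adjusted p = 0.0898). Tnfsf18, its dim ligand gene, differed by -0.24 ± 0.08 under smoke (adjusted p = 0.0181), and this was -0.09 with quantile normalization (adjusted p = 0.409) and -0.20 without deficient smoke replicate 2 (adjusted p = 0.0742).

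Tnfsf8 and Tnfrsf8, the ligand and receptor of the CD30 pair of activated lymphocytes, differed in opposite directions between genotypes under smoke. Tnfsf8 averaged 5.49 ± 0.21 in deficient smoke, 5.44 ± 0.13 in deficient air, 4.97 ± 0.14 in wild type smoke and 5.07 ± 0.13 in wild type air arrays. It was higher in deficient arrays by 0.52 ± 0.11 under smoke (adjusted p = 0.00174) and by 0.37 ± 0.11 in air (adjusted p = 0.0192). The call in air was lost without deficient air replicate 1 or 2 or wild type air replicate 1 or 3 (0.32 to 0.35, adjusted p = 0.0615 to 0.0760). Tnfrsf8 averaged 6.56 ± 0.05 in deficient smoke, 6.52 ± 0.06 in deficient air, 6.82 ± 0.16 in wild type smoke and 6.47 ± 0.10 in wild type air arrays. It rose by 0.35 ± 0.08 with smoke in wild type hosts (adjusted p = 0.00692; 0.0502 in a fit of those 6 arrays alone) and differed by -0.26 ± 0.08 between genotypes under smoke (adjusted p = 0.0168), which was lost without deficient smoke replicate 3 or wild type smoke replicate 3 (-0.23 and -0.18, adjusted p = 0.0582 and 0.0769). In air the Tnfrsf8 difference was 0.06 ± 0.08 and did not pass (adjusted p = 0.664).

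Tnfrsf14 encodes HVEM, a receptor of lymphocytes and epithelium that binds LIGHT. It was higher in deficient arrays by 0.57 ± 0.07 in air (8.61 ± 0.09 against 8.04 ± 0.04, adjusted p = 3.25e-05) and by 0.33 ± 0.07 under smoke (8.43 ± 0.09 against 8.10 ± 0.09, adjusted p = 0.00175). LIGHT itself, Tnfsf14, passed in no comparison. Tnfsf15 encodes TL1A, a ligand made by endothelium and myeloid cells. It was higher in deficient arrays by 0.47 ± 0.10 in air (adjusted p = 0.00148) and by 0.25 ± 0.10 under smoke (adjusted p = 0.0405), the smoke call being lost in 12 of 20 alternatives, among them leaving out any 1 of the 6 deficient arrays or wild type smoke replicate 1 (0.13 to 0.27, adjusted p = 0.0512 to 0.149). Its receptor gene, Tnfrsf25 (DR3), passed in no comparison.

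In the RANK system, which drives osteoclasts and also acts on dendritic and epithelial cells, the receptor gene moved and the ligand gene did not pass. Tnfrsf11a, which encodes RANK, was 7.61, 7.59 and 7.67 in deficient smoke, 7.58, 7.55 and 7.58 in deficient air, 8.12, 8.15 and 8.13 in wild type smoke, and 7.80, 7.71 and 7.53 in wild type air arrays. It rose by 0.45 ± 0.07 with smoke in wild type hosts (adjusted p = 3.22e-04), with a difference of 0.05 ± 0.07 in deficient hosts and a difference between the responses of -0.40 ± 0.10 (adjusted p = 0.0146). Deficient arrays differed by -0.51 ± 0.07 under smoke (adjusted p = 3.99e-05). Tnfsf11, the RANKL gene, averaged 7.95 ± 0.11 in deficient smoke, 7.94 ± 0.16 in deficient air, 8.29 ± 0.38 in wild type smoke and 7.93 ± 0.24 in wild type air arrays. Its wild type smoke arrays spread from 7.91 to 8.66, and without wild type smoke replicate 1 its smoke difference was 0.55 (adjusted p = 0.00777) in place of 0.36 ± 0.16 (adjusted p = 0.116).

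Tnfrsf12a encodes Fn14, the receptor of TWEAK, which is induced by injury and growth factors in epithelial, mesenchymal and tumour cells. It averaged 8.90 ± 0.11 in deficient smoke, 8.74 ± 0.08 in deficient air, 9.52 ± 0.11 in wild type smoke and 9.05 ± 0.14 in wild type air arrays. It rose by 0.48 ± 0.09 with smoke in wild type hosts (adjusted p = 0.00142), and deficient arrays differed by -0.63 ± 0.09 under smoke (adjusted p = 5.27e-05). In air the difference was -0.31 ± 0.09 (adjusted p = 0.0150), lost without deficient air replicate 3 or wild type air replicate 1 (-0.26 and -0.23, adjusted p = 0.0696 and 0.0771). Proliferation markers ran the same way as Fn14 between genotypes, with 9 of 9 lower in deficient arrays in air and under smoke, and mean levels of 8.39 to 9.01 in deficient smoke, 8.56 to 8.80 in deficient air, 10.14 to 10.20 in wild type smoke and 9.75 to 9.92 in wild type air arrays. Their part in these results was not tested.

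Tnfrsf19 and Tnfrsf21 are receptors known from epithelium and the nervous system. Tnfrsf19 encodes TROY, a receptor of epithelial progenitors and a Wnt target. It was 8.13, 8.35 and 8.20 in deficient smoke, 8.44, 8.37 and 8.42 in deficient air, 6.81, 7.09 and 7.14 in wild type smoke, and 7.96, 8.03 and 8.05 in wild type air arrays. It fell by 1.00 ± 0.09 with smoke in wild type hosts (adjusted p = 1.44e-06), with a difference of -0.18 ± 0.09 in deficient hosts (adjusted p = 0.515) and of 0.82 ± 0.12 between the responses (adjusted p = 3.96e-04). Deficient arrays were higher by 0.40 ± 0.09 in air (adjusted p = 0.00246) and by 1.21 ± 0.09 under smoke (2.32-fold, adjusted p = 7.07e-08).

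Tnfrsf21 encodes DR6, a receptor with a death domain. It was 8.70, 8.71 and 8.75 in deficient smoke, 8.55, 8.59 and 8.46 in deficient air, 7.55, 7.58 and 7.84 in wild type smoke, and 7.87, 7.91 and 7.84 in wild type air arrays. Deficient arrays were higher by 0.66 ± 0.08 in air (1.58-fold, adjusted p = 1.38e-05) and by 1.06 ± 0.08 under smoke (2.09-fold, adjusted p = 7.28e-08). Neither smoke difference passed, at 0.19 ± 0.08 in deficient and -0.21 ± 0.08 in wild type hosts, though the latter did in 3 of 20 alternatives. The responses differed from each other by 0.40 ± 0.11 (adjusted p = 0.0244). That last call was lost without deficient smoke replicate 2 or 3, deficient air replicate 3, wild type smoke replicate 2 or wild type air replicate 2 (0.36 to 0.41, adjusted p = 0.0505 to 0.0712).

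Tnfrsf26, a mouse gene beside the decoy receptor genes, averaged 6.75 ± 0.05 in deficient smoke, 6.70 ± 0.05 in deficient air, 6.79 ± 0.16 in wild type smoke and 6.26 ± 0.19 in wild type air arrays. Wild type air was the low group. It rose by 0.53 ± 0.10 with smoke in wild type hosts (adjusted p = 0.00109) and was higher in deficient arrays by 0.43 ± 0.10 in air (adjusted p = 0.00256). The responses differed by -0.48 ± 0.14 (adjusted p = 0.0308), lost without deficient smoke replicate 2 or 3, deficient air replicate 1 or 2, wild type smoke replicate 2 or wild type air replicate 2 (-0.49 to -0.38, adjusted p = 0.0585 to 0.0792) and with quantile normalization (-0.49, adjusted p = 0.103).

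Many of these genes are neighbours, with no other protein-coding gene of the RefSeq table between them: 6 such pairs hold 11 of the 29 genes. Neighbours differed in some comparisons and went the same way in others. On chromosome 4, Tnfrsf1b was higher in deficient air arrays by 1.68 where the difference of its neighbour Tnfrsf8 was 0.06, and Tnfrsf18 differed by 0.30 beside 0.01 for Tnfrsf4. The 3 receptor genes in a row on chromosome 7, Tnfrsf26, Tnfrsf22 and Tnfrsf23, each rose with smoke in wild type hosts, by 0.53, 0.46 and 0.90, yet in air Tnfrsf26 was higher in deficient arrays by 0.43 and Tnfrsf22 lower by -0.41. On chromosome 1, Tnfsf4 rose with smoke in wild type hosts by 0.46, where the difference of Tnfsf18 was 0.06. Under smoke both were lower in deficient arrays, by -0.52 and -0.24, as were Tnfrsf22 and Tnfrsf23, by -0.84 and -0.99. Tnfsf15 and Tnfsf8, neighbours on chromosome 4, were both higher in deficient arrays. They differed by 0.47 and 0.37 in air and by 0.25 and 0.52 under smoke.

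Genes that passed in none of the 4 pairwise comparisons numbered 6: Tnfrsf13b, Tnfrsf13c, Tnfrsf25, Tnfrsf4, Tnfsf11 and Tnfsf14. Their differences lay between -0.34 and 0.36, and the 95% intervals of these differences reached from -0.70 to 0.71, so differences of that size are not excluded. Each of these 6 genes passed some pairwise comparison in at least 1 alternative. Tnfrsf13c did for smoke in wild type hosts with array weights (0.37, adjusted p = 0.0133). For genotype under smoke, Tnfrsf4 passed with median centring (-0.25, adjusted p = 0.026), Tnfsf11 in 4 of 20 alternatives and Tnfsf14 in 3 of 20. Tnfsf10 and Tnfrsf1b passed in all 4, 5 genes passed in 3, 12 in 2 and 4 in 1. The shares of all genes by number of comparisons passed were not counted, so these counts do not set the 29 genes apart. A filter at a log2 level of 6 in at least 3 arrays kept 25 of the 29 genes, the 4 below it being Tnfrsf17, Tnfsf18, Tnfsf4 and Tnfsf8.

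Other genes of the TNF family carry symbols outside the rule, and 15 of these were followed as a list. With smoke in wild type hosts 3 of 15 rose and 1 fell (15.0% and 14.0% of all genes; median 0.14, all genes 0.08), and in deficient hosts 1 fell (1.72% of all genes; median -0.04, all genes -0.00). Deficient arrays had 7 of 15 higher and 1 lower in air (20.5% and 18.0% of all genes; median 0.16, all genes -0.03) and 6 higher and 3 lower under smoke (22.7% and 37.0%; median 0.05, all genes -0.14). Fas, the death receptor of Fas ligand, was 9.11, 9.23 and 9.17 in deficient smoke, 9.10, 8.97 and 8.98 in deficient air, 7.13, 6.76 and 7.19 in wild type smoke, and 7.95, 7.60 and 8.23 in wild type air arrays. It fell by 0.89 ± 0.14 with smoke in wild type hosts (1.86-fold, adjusted p = 3.15e-04), the direction opposite to that of the TRAIL receptor genes in the same arrays. Fas was higher in deficient arrays by 1.09 ± 0.14 in air and by 2.14 ± 0.14 under smoke (4.40-fold, adjusted p = 2.57e-08), and its responses differed by 1.05 ± 0.20 (adjusted p = 0.00223).

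Eda2r, a receptor of ectodysplasin A2, differed by -0.92 ± 0.13 in deficient against wild type arrays in air (adjusted p = 7.02e-05) and by -0.64 ± 0.13 under smoke (adjusted p = 9.14e-04). It was the 1 gene of the 15 that was lower in air. Ltbr, the lymphotoxin beta receptor, was higher in deficient arrays by 0.42 ± 0.07 under smoke (adjusted p = 3.00e-04). Lta, lymphotoxin alpha, and Ngfr, a nerve growth factor receptor of the same family, rose with smoke in wild type hosts by 0.33 ± 0.10 and 0.31 ± 0.10 (adjusted p = 0.0241 and 0.0266). Both calls were lost in the fit of those 6 arrays alone (adjusted p = 0.0998 and 0.106). Lta also lost it without wild type smoke replicate 2 or 3 or wild type air replicate 2 or 3 (0.22 to 0.34, adjusted p = 0.0510 to 0.0966), and Ngfr without wild type smoke replicate 2 or 3 or wild type air replicate 1 or 3 (0.21 to 0.30, adjusted p = 0.0728 to 0.105).

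Ltb, Cd40, Cd27 and Fasl were among the 7 genes of that list that were higher in deficient air arrays. Ltb, lymphotoxin beta, was higher there by 0.67 ± 0.10 and under smoke by 0.65 ± 0.10 (adjusted p = 1.25e-04 and 1.08e-04). Cd40, the costimulatory receptor of B cells and dendritic cells, was higher by 0.52 ± 0.09 in air and 0.39 ± 0.09 under smoke, and Cd27, a receptor of T and B cells, by 0.46 ± 0.10 and 0.36 ± 0.10 (0.22 under smoke with median centring, adjusted p = 0.0542). Fasl, the Fas ligand of cytotoxic cells, was higher by 0.45 ± 0.07 in air (adjusted p = 2.17e-04), with a difference of 0.05 ± 0.07 under smoke (0.19 with quantile normalization, adjusted p = 0.0242). Its responses differed by -0.40 ± 0.10 (adjusted p = 0.0172), lost without deficient air replicate 3 (-0.36, adjusted p = 0.0535) and with quantile normalization (-0.26, adjusted p = 0.0738). T and NK cell markers were higher in the same arrays, 10 of 11 in air and 10 of 11 under smoke, with medians of 1.17 and 1.04. Cd70, the ligand of Cd27, differed by -0.22 ± 0.15 in air, which did not pass (adjusted p = 0.281), and by -0.38 ± 0.15 under smoke (adjusted p = 0.0422), with overlapping groups. The call under smoke was lost without any 1 of the 3 deficient smoke arrays, the 3 deficient air arrays, wild type smoke replicate 2 or 3 or wild type air replicate 1 (-0.41 to -0.24, adjusted p = 0.0504 to 0.183).

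Inside the cell, TNF receptors act through TRAF adaptors, kinases, caspase-8 with its inhibitor cFLIP, and NF-kB with its feedback inhibitors, and 38 of 42 listed genes of this machinery were measured. With smoke in wild type hosts 10 rose and 4 fell (15.0% and 14.0% of all genes; median 0.06), and in deficient hosts 3 fell (1.72% of all genes; median -0.07). Deficient arrays had 16 higher and 4 lower in air (20.5% and 18.0% of all genes; median 0.15) and 11 higher and 8 lower under smoke (22.7% and 37.0%; median -0.04). Traf1, an NF-kB-induced adaptor of TNFR2, was 8.04, 8.20 and 8.16 in deficient smoke, 8.18, 8.15 and 8.18 in deficient air, 6.52, 6.32 and 6.19 in wild type smoke, and 7.18, 6.84 and 7.21 in wild type air arrays. It fell by 0.73 ± 0.10 with smoke in wild type hosts and was higher in deficient arrays by 1.09 ± 0.10 in air and 1.79 ± 0.10 under smoke (3.46-fold, adjusted p = 7.07e-09). Map3k5, the stress kinase ASK1, ran the same way, with a fall of 0.94 ± 0.12 with smoke in wild type hosts and differences of 0.95 ± 0.12 in air and 1.69 ± 0.12 under smoke, and its responses differed by 0.75 ± 0.17 (adjusted p = 0.0101).

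Ripk3 and Mlkl, which carry out necroptosis, rose with smoke in wild type hosts. Ripk3 was 8.13, 8.0 and 7.91 in deficient smoke, 8.28, 8.23 and 8.14 in deficient air, 8.87, 8.74 and 8.74 in wild type smoke, and 7.90, 7.56 and 7.46 in wild type air arrays. It rose by 1.15 ± 0.10 with smoke in wild type hosts (2.22-fold, adjusted p = 1.99e-06), and the responses of the genotypes differed by -1.35 ± 0.15 (adjusted p = 2.12e-05). Deficient arrays were higher in Ripk3 by 0.58 ± 0.10 in air (adjusted p = 5.19e-04) and differed by -0.77 ± 0.10 under smoke (adjusted p = 2.90e-05). Mlkl rose by 0.44 ± 0.09 with smoke in wild type hosts, and deficient arrays differed by -0.45 ± 0.09 in air (adjusted p = 0.00174) and by -0.84 ± 0.09 under smoke. The test between its responses did not pass (-0.39 ± 0.13, adjusted p = 0.0757), though it did with quantile normalization (-0.42, adjusted p = 0.0170). Cflar, which encodes cFLIP, fell by 0.49 ± 0.06 with smoke in wild type hosts and was higher in deficient arrays by 0.75 ± 0.06 under smoke.

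Of the genes of NF-kB and its regulators, Tnfaip3, which encodes A20, was higher in deficient air arrays by 0.90 ± 0.07 (1.87-fold, adjusted p = 4.55e-07), Birc3, which encodes cIAP2, by 0.93 ± 0.08 (adjusted p = 1.76e-06), and the NF-kB subunit gene Rel by 1.03 ± 0.09 (adjusted p = 8.39e-07). Other NF-kB subunit genes, Nfkb2 and Relb, differed by -0.02 ± 0.07 and 0.15 ± 0.10 there and did not pass (adjusted p = 0.865 and 0.252). Rela passed as higher in deficient arrays, by 0.20 ± 0.07 in air (adjusted p = 0.0285) and 0.23 ± 0.07 under smoke (adjusted p = 0.00873). Both Rela calls were lost with median centring (0.12 and 0.09, adjusted p = 0.142 and 0.213). The air call was also lost without deficient air replicate 1 or 2 or wild type air replicate 2 (adjusted p = 0.0797 to 0.106). With smoke Tnfaip3 fell by 0.32 ± 0.07 in deficient hosts (adjusted p = 0.0289), a call lost without any 1 of the 6 deficient arrays (-0.34 to -0.29, adjusted p = 0.0674 to 0.156) and with median centring (adjusted p = 0.0507), and rose by 0.43 ± 0.07 in wild type hosts (adjusted p = 4.00e-04). The responses differed by -0.75 ± 0.10 (adjusted p = 1.18e-04). Rel and Cflar also fell with smoke in deficient hosts, by 0.38 ± 0.09 and 0.27 ± 0.06 (adjusted p = 0.0324 and 0.0332). Both calls were lost without any 1 of the 6 deficient arrays, at -0.41 to -0.37 for Rel (adjusted p = 0.0883 to 0.149) and -0.29 to -0.25 for Cflar (adjusted p = 0.0755 to 0.152), and with median centring, at adjusted p = 0.0584 and 0.0984, and Cflar also with the mean of its probe sets (adjusted p = 0.224). Nfkbie, an inhibitor of NF-kB, rose by 0.52 ± 0.12 with smoke in wild type hosts, and its responses differed by -0.80 ± 0.17 (adjusted p = 0.0066).

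Some marker lists moved with the genotype or smoke comparisons and others did not, and their part in the results above was not tested. With smoke in deficient hosts 1 of 9 endothelial, 1 of 12 alveolar, 0 of 6 airway and 0 of 9 proliferation markers passed, while 4 of 7 neutrophil markers rose. With smoke in wild type hosts 4 of 9 fibroblast markers rose and 4 fell, and 0 of 5 plasma cell markers passed. Interferon response genes were higher in deficient arrays, 9 of 9 in air and 9 of 9 under smoke (medians 1.65 and 1.52), with a mean level of 8.90 to 9.31 in deficient smoke, 9.26 to 9.36 in deficient air, 7.48 to 7.75 in wild type smoke and 7.09 to 8.20 in wild type air arrays. In the wild type air array that was high for this list, Tnfsf10 was 9.37 and Tnfsf13b 8.21, both between the values of the other 2 wild type air arrays. Other genes of the set were highest in that array. Tnfrsf1b was 8.68 there, against 8.21 and 8.43, Tnfrsf9 7.93, against 7.59 and 7.52, and Tnfrsf23 7.74, against 7.32 and 7.22. How many of the 29 genes were highest in it was not counted. Without that array, the smoke difference in wild type hosts was -2.50 for Tnfsf10 and -1.38 for Tnfsf13b (adjusted p = 5.47e-07 and 8.20e-06). With smoke in wild type hosts, where Tnfsf10 and Tnfsf13b fell, 1 of 9 interferon genes passed, as lower (median 0.16). Without wild type air replicate 1, an alternative added after seeing the data, 5 rose and 1 fell (median 0.56).

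All 9 endothelial and all 12 alveolar markers fell with smoke in wild type hosts. Endothelial markers had a mean level of 11.08 to 11.26 in deficient smoke, 11.10 to 11.15 in deficient air, 8.79 to 8.89 in wild type smoke and 10.04 to 10.24 in wild type air arrays. Alveolar markers had 11.60 to 11.74 in deficient smoke, 11.67 to 11.72 in deficient air, 8.59 to 8.75 in wild type smoke and 10.71 to 10.91 in wild type air arrays. Airway epithelium markers fell with smoke in wild type hosts, 5 of 6 with a median of -2.66, and 4 of 6 were higher in deficient arrays in air (median 0.66) and 6 of 6 under smoke (median 3.36). Their mean level was 10.41 to 10.51 in deficient smoke, 10.53 to 10.57 in deficient air, 7.12 to 7.27 in wild type smoke and 9.86 to 10.07 in wild type air arrays. Wild type smoke arrays were the lowest for all 3 lists. Macrophage and monocyte markers rose with smoke in wild type hosts, 7 of 9 with a median of 0.97, and 8 of 9 were higher in deficient arrays in air (median 0.84) but 2 of 9 under smoke, where 5 were lower. The log2 scale of these arrays has no zero, so no marker can be said to be at 0.

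**Figure D4:**
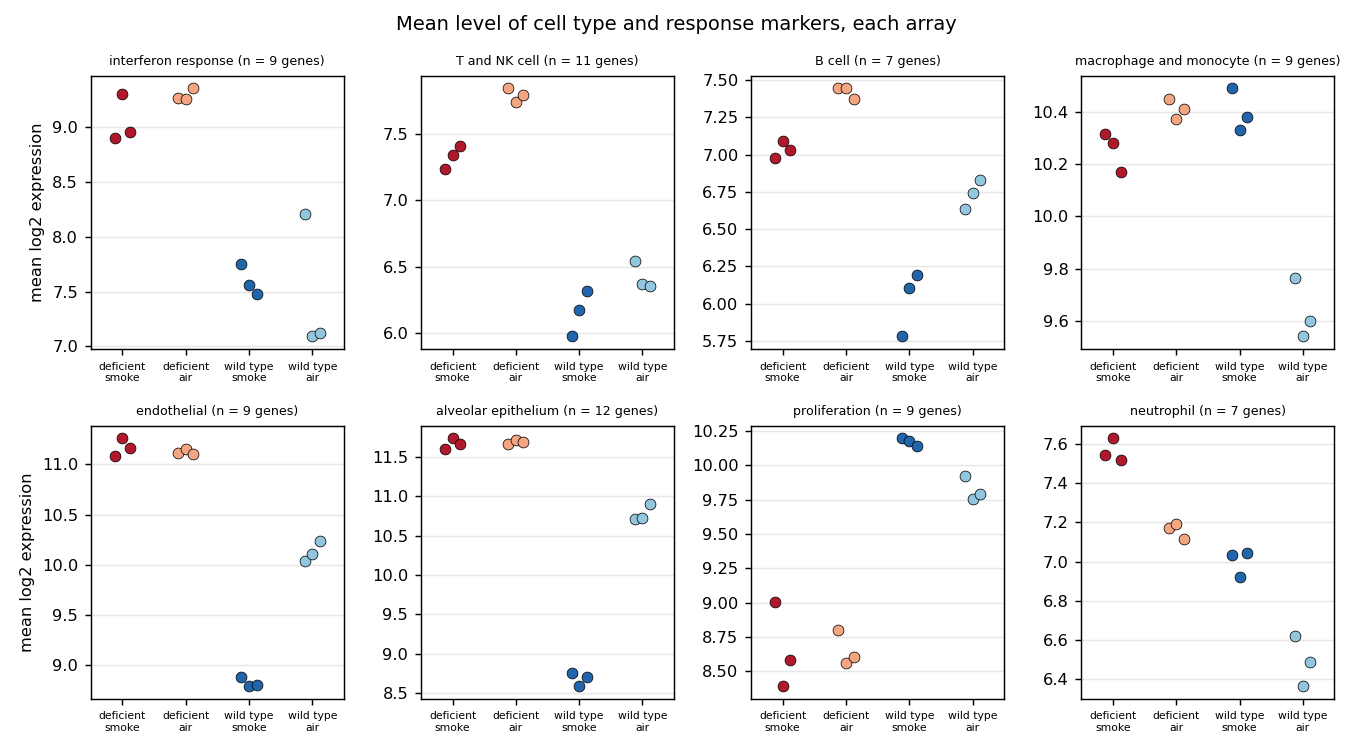
Mean log2 expression of 8 marker lists in each of the 12 arrays, with each list on its own vertical axis, which does not start at 0. Endothelial and alveolar lists are lowest in wild type smoke arrays, the interferon list is high in all deficient arrays and in 1 wild type air array, and proliferation markers are higher in all wild type than in all deficient arrays.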

How the data were processed

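The deposited log2 values were made by the authors in Affymetrix Expression Console with RMA, per the submitters' processing notes. RMA removes background, quantile normalizes probe intensities and combines probes into 1 value. A level can be set beside that of the same gene on another array, but not beside another gene's, and medians over genes still differed between arrays. Tool versions and genome build are not given in the sources used here. Of 34760 probe sets, 21640 name 1 gene; where a gene had several, that of highest mean stood for it (19937 genes, no filter on low values).

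Group means were estimated from all 12 arrays together (limma 3.58.1, R 4.3.3; residual df 8, prior df 4.83), with 2-sided moderated tests and Benjamini-Hochberg adjustment over all genes of a contrast. The procedure was tested on simulated data. The interaction is the smoke difference in deficient minus that in wild type hosts. The number of arrays limits the precision. Since the labels do not say that replicates were separate animals, a p-value speaks to the spread among these arrays alone, and that spread may be technical. Gene lists are described by counts and medians without a list test. The members, lists and tests were chosen with earlier results of these data known.

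Values of every array are given for genes that passed with groups that did not overlap and a difference of at least 1 log2 unit, for their partners, and for a few others chosen after their values were seen (Tnfrsf11a, Tnf, Fas, Traf1 and Ripk3). Outside the set, up to 4 genes of a list with the largest passing differences in each comparison are named, and Tnf, Rela, Tnfaip3, Birc3, Traf1, Cd40, Cd27, Cd70, Fas, Fasl and Ltb; Nfkb2 and Relb were added after their values were seen. Alternatives were a filter on dim genes, averaged probe sets, an intensity trend, array weights, quantile normalization, median centring, the replicate number as a block, fits of 6 arrays, and leaving out each array.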

Additional observations from a re-analysis of the deposited data

Results flagged for a closer look

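For 10 genes the smoke response differed between genotypes in the interaction test (deficient minus wild type response, limma, adjusted over all genes). Tnfsf10 had the largest positive value, 1.80 (smoke difference -0.69 in deficient and -2.49 in wild type hosts), followed by Tnfsf13b at 1.03 (-0.33 and -1.36) and Tnfrsf19 at 0.82 (-0.18 and -1.0). Tnfrsf21 had 0.40 (0.19 and -0.21) and Tnfrsf11b 0.36 (0.23 and -0.13), from smoke differences that did not pass on their own. Tnfrsf9 had the largest negative value, -1.52 (-0.23 in deficient and 1.28 in wild type hosts). Tnfrsf1b, at -0.96, passed as lower in deficient hosts (-0.60) and as higher in wild type hosts (0.36). Tnfrsf23 had -0.87 (0.03 and 0.90), Tnfrsf26 -0.48 (0.05 and 0.53) and Tnfrsf11a -0.40 (0.05 and 0.45). The other genes of the set that rose with smoke in wild type hosts did not pass the interaction test. These were Tnfrsf22 (adjusted p = 0.0937), Tnfrsf8 (0.0973), Tnfrsf12a (0.119), Tnfrsf10b (0.251) and Tnfsf4 (0.285), so a response of wild type hosts alone is not shown for them. With 3 arrays a group, single arrays were not tested as outliers.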

How the results depend on the processing

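Over all alternatives, values of the 29 genes gave 2706 repeats on the same side of the threshold, 73 lost calls and 72 gained ones, and no called difference changed sign. Array weights gave 20 called genes of the set for smoke in wild type hosts (all genes 10211), 6 for smoke in deficient hosts (1368) and 19 for the interaction (6662). For smoke in deficient hosts quantile normalization gave 1 (all genes 198 higher and 323 lower) and median centring 1 (158 and 280). The replicate block gave 1 there (all genes 440), and the fit of 6 arrays 4 (1018). For smoke in wild type hosts median centring gave 9852 genes in all and the fit of 6 arrays 3454. Leaving out single arrays gave 1 to 3 called genes of the set for smoke in deficient hosts (all genes 261 to 717, any 1 of its 6 arrays giving 1 gene), 3695 genes in all (without wild type air replicate 3) to 8824 (without wild type smoke replicate 1) for smoke in wild type hosts, and 2239 to 4969 (without wild type smoke replicate 1) for the interaction. The cause was not tested.

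The labels do not say whether replicate numbers pair the arrays, and the values did not settle it. Same-numbered arrays of different groups had deviations correlated with r of -0.36 to 0.37 over 18 pairs, 7 of them above 0.1. Of 12 arrays 5 correlated best with their own number. With the replicate block 13, 1, 14, 22 and 10 genes of the set were called (all genes 6084, 440, 7778, 11919 and 3020). These counts are for smoke in wild type hosts, smoke in deficient hosts, genotype in air, genotype under smoke and the interaction, in that order. Of the set 1 call changed, that of Tnfsf10 for smoke in deficient hosts (adjusted p = 0.0557). The genes named outside the set were run through the same alternatives, which was decided after seeing the data, with 83 lost and 47 gained calls. Dim probe sets limit what can be seen for Tnfrsf17, Tnfsf18, Tnfsf4 and Tnfsf8.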
